A study of Mus musculus with 6 samples.

Results

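The genes of 6 matrix metalloproteinases (Mmp2, Mmp3, Mmp9, Mmp10, Mmp13 and Mmp14) and of the 4 tissue inhibitors of metalloproteinases (Timp1 to Timp4) were compared between bone cells of control and dexamethasone-treated mice. The 10 members were taken by symbol, through the GENCODE M21 table of Ensembl identifiers, and all 10 had a row among the 29616 genes of the deposited table. RNA sequencing covered 3 libraries of each group, which the labels call biological replicates. The labels give the strain of all animals as C57BL/6, with no engineered allele, and the study lists its wild-type mice as C57BL/6J. The treated mice were given the synthetic glucocorticoid dexamethasone each day over 4 weeks, starting at 8 weeks of age, in a dose of 0.08 µg/g. The labels say of the others only that they were controls. The study names saline as the control in its bone imaging of treated mice, and does not state it for the sequenced libraries. The labels call the material bone cells, and the study describes cells positive for the protein Osteocalcin, sorted after the marrow was flushed out and the bone was digested with collagenase. Whether a library came from 1 mouse or from several is not given in the sources used here, and neither is the sex of the mice.

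Matrix metalloproteinases (MMPs) are zinc enzymes, most of them secreted as inactive proenzymes, that cut collagens and other proteins of the extracellular matrix. TIMPs are small secreted proteins that bind the active site of these enzymes and block it. MMP14 is anchored in the cell membrane, and together with TIMP2 it activates the proenzyme of MMP2, so that an inhibitor also serves as an adaptor. In bone, MMP13 is the main interstitial collagenase of mouse osteoblasts and hypertrophic chondrocytes, MMP9 is known from osteoclasts and neutrophils, and MMP14 and MMP2 are needed for normal skeletal growth. Glucocorticoids are known to repress several MMP genes by interfering with the transcription factor AP-1.

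With dexamethasone, Timp1 rose 19.5-fold, Mmp13 rose 2.73-fold, and Mmp2, Mmp14 and Timp3 fell to 49.5%, 42.4% and 38.6% of the control level. Mmp9 and Timp4 were also lower, at levels of few reads. Timp2, the most abundant member in control cells, had 112% of the control level. Mmp10 had no read in any control library and some in each dexamethasone library, and Mmp3 was close to the limit of detection in both groups. Expression is given as normalized counts, the reads of a gene divided by 1 size factor per library. The test, with limma, took genes whose normalized counts averaged at least 10 across all 6 libraries, which left 8 of the 10 members, and Mmp3 and Mmp10 fell below this level. A gene was called differentially expressed at a Benjamini-Hochberg adjusted p under 0.05 together with a log2 fold change that reached 1 up or down, the cut-offs of the study's methods. Of the 8 tested members 7 were called, against 22.3% of all 17442 genes tested. The called members were 2 higher with dexamethasone (Timp1 and Mmp13), against 11.7% of all genes, and 5 lower (Mmp2, Mmp9, Mmp14, Timp3 and Timp4), against 10.6%. The values of the 3 control and the 3 dexamethasone libraries did not overlap for any of the 8 tested members, where 74.7% of all tested genes showed the same. At an adjusted p under 0.05 alone all 8 passed, against 72.5% of all tested genes. The median log2 fold change of the tested members was -1.09, beside a median of 0.00071 over all tested genes. Mmp9 and Timp4 passed the filter through their control libraries, with dexamethasone means of 9.05 and 5.03 normalized counts. Mmp10, with 0 reads in the controls and a dexamethasone mean of 11.5, did not pass. The count called lower and the median of the members thus depend on the filter.

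**Figure D1:**
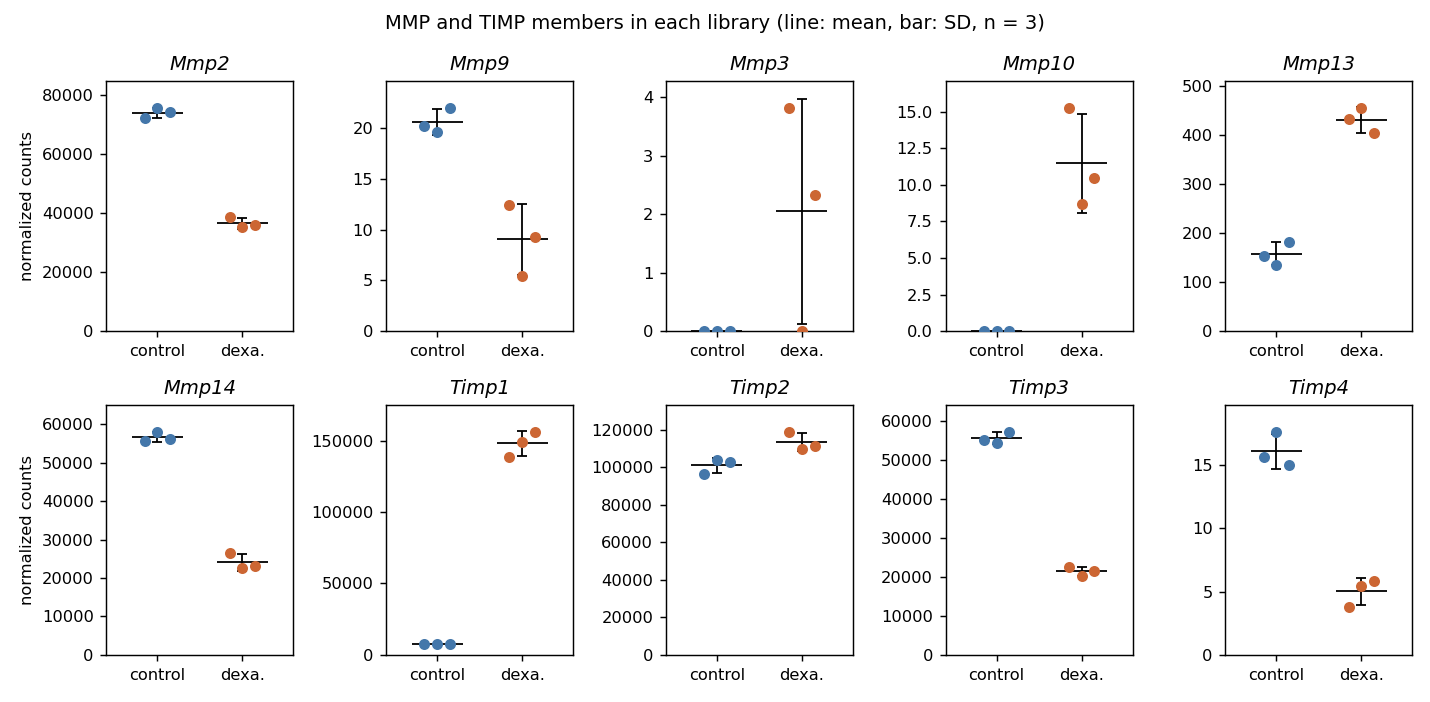
Each panel plots 1 member in normalized counts (vertical axes start at 0 and differ between panels), with 1 point per library, the mean of 3 libraries as a line and the SD as a bar. Timp1 lies between 7465 and 7688 in the control libraries and between 138710.1 and 156273 in the dexamethasone libraries, and Mmp2, Mmp14 and Timp3 are lower in every dexamethasone library than in any control library.

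The libraries held 72596611 to 89910728 reads counted to genes, so the precision of the abundant members was set by the spread between libraries and that of Mmp3, Mmp9, Mmp10 and Timp4 by few reads. Where a gene had 0 reads, a level of up to 3 reads cannot be told from none, a limit that covers counting error only. No libraries of a group agreed within sampling noise (3.27 to 26.1 for chi-square over degrees of freedom in the 6 pairs). The cell type described by the study was checked on 8 osteoblast markers, all of which were detected. Bglap and Bglap2 both encode Osteocalcin, the protein used for the sort. Bglap had mean normalized counts of 107 in the control and 12.2 in the dexamethasone libraries, and Bglap2 had 324 and 31.3. These are few beside the 961923 and 261192 of the collagen gene Col1a1. Of these 8 markers 7 were called lower and 1, Dmp1, higher, against 10.6% and 11.7% of all tested genes. Dmp1 had mean normalized counts of 38.5 in the control and 5639 in the dexamethasone libraries. Spp1 (osteopontin), which the study used as an osteogenic marker, is not in this list and had a log2 fold change of 5.25. The groups thus differed in osteoblast markers as well as in the members. In bulk libraries fewer cells of a type and less RNA per cell cannot be told apart.

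The sequences before the start sites are shown for Mmp13, Mmp3 and Mmp10, which lie in 1 cluster of MMP genes on chromosome 9 and all carry an AP-1 motif, and for Timp1, the member with the largest change. They are the 120 bases before the start in RefSeq on the plus strand of GRCm38.p6, read 5′ to 3′. The deposited counts were made on GRCm39, so these coordinates are not those of the counts. Capitals mark the AP-1 motif TGAGTCA, the PEA3 motif AGGAAG and the TATA box TATAAA, the first and second sought on both strands. The windows are chr9:7272394-7272513 for Mmp13, chr9:7445702-7445821 for Mmp3, chr9:7502222-7502341 for Mmp10 and chrX:20870046-20870165 for Timp1.
Mmp13: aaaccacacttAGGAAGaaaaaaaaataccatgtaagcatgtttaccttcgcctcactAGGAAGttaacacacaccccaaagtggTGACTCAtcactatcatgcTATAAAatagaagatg
Mmp3: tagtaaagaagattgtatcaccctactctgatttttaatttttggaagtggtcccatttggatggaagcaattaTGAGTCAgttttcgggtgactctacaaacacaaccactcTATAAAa
Mmp10: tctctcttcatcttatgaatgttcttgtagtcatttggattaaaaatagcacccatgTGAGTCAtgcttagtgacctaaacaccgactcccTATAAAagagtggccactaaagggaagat
Timp1: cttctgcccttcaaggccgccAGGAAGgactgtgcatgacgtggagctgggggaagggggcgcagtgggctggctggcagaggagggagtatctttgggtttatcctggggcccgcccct

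The AP-1 motif began 35 bases before the start of Mmp13, 46 before that of Mmp3 and 63 before that of Mmp10. In each of these windows a TATA box followed it, beginning 16, 7 and 29 bases before the start. All these distances depend on the RefSeq start, which was not tested. Of the 10 members 8 had a promoter entry, all but Mmp2 and Mmp9. Within 250 bases before the start, 3 of these 8 held the AP-1 motif, against 4.46% of 32851 promoters of that length, and the same 3 held the TATA box, against 7.59%. The PEA3 motif, which Ets factors bind, was in 6 of the 8, against 29.5% of all promoters, 2 of its matches being in the Timp1 window of 250 bases. The Runx motif ACCACA was found in the windows of Mmp13 and Mmp14, against 14% of all promoters. The full glucocorticoid response element, AGAACA and TGTTCT with 3 bases of any kind between them, was in 0 of the 8 and in 0.00913% of all promoters. A form this rare was unlikely to appear in 8 windows, so its absence says nothing on incomplete or more distant elements. These matches describe letters in a window and not binding. Of the 3 genes with the AP-1 motif, Mmp13 and Mmp10 had more reads with dexamethasone, and Mmp3 had few reads in either group.

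Timp1 encodes the inhibitor with the widest use in inflamed and remodelling tissue, which blocks most secreted MMPs but acts poorly on membrane-type enzymes. Its normalized counts in replicates 1, 2 and 3 were 7465, 7688 and 7601 for the control group and 138710.1, 148898 and 156273 for the dexamethasone group. The control libraries differed little among themselves, and every dexamethasone library was far above them. The mean rose from 7585 ± 113 (SD, n = 3) to 147960.4 ± 8819 (SD, n = 3), which is 4.28 ± 0.0407 (SE) as log2 fold change with an adjusted p of 1.97e-29 in limma. Of the 17442 tested genes, 121 including Timp1 had a log2 fold change at least this high. By mean normalized counts Timp1 was at position 2262 of all genes in the control group and at position 30 in the dexamethasone group. Over all alternative analyses its log2 fold change was between 4.17 and 4.33.

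Timp2 encodes the inhibitor that also serves in the activation of proMMP2. Its normalized counts were 96394, 103634 and 102813 in the control libraries and 119003, 109912 and 111199 in the dexamethasone libraries. The dexamethasone libraries were all above the controls, a smaller shift than that of any other tested member. The means were 100947 ± 3965 (SD, n = 3) and 113371 ± 4919 (SD, n = 3), 0.17 as log2 fold change with a 95% interval of 0.0726 to 0.26 (limma adjusted p = 0.0022). This is under the cut-off of 1, and with all libraries rescaled to the same total the log2 fold change was 0.0532 (limma adjusted p = 0.118). Under that rescaling the median log2 fold change of all tested genes was -0.11.

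Timp3 encodes the inhibitor that stays bound to the matrix and also blocks ADAM and ADAMTS enzymes. It had 55178, 54450 and 57403 normalized counts in the control libraries and 22576, 20362 and 21515 in the dexamethasone libraries. All dexamethasone libraries were below all controls, with means of 55677 ± 1539 (SD, n = 3) and 21484 ± 1107 (SD, n = 3). As log2 fold change this is -1.37 ± 0.0402 (SE), with an adjusted p of 4.91e-20 in limma. Timp4, an inhibitor known mainly from heart, brain and fat, was covered by 17, 18 and 17 reads in controls and by 4, 5 and 5 with dexamethasone. Its normalized counts fell from 16.1 ± 1.39 (SD, n = 3) to 5.03 ± 1.06 (SD, n = 3), which is -1.51 ± 0.418 (SE) as log2 fold change with an adjusted p of 0.00236 in limma. The groups did not overlap, but the gene passed the filter narrowly, with a mean of 10.5 over the 6 libraries.

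Timp1, Timp3 and Timp4 each lie within the span of a synapsin gene on the opposite strand (Syn1, Syn3 and Syn2), the genes of synaptic vesicle proteins. The strand setting of the authors' count is not given in the sources used here, so reads of a TIMP gene and of an overlapping synapsin exon cannot be told apart with certainty. In GENCODE M21 the exons of Syn3 cover 21.3% of the exon bases of Timp3, those of Syn2 cover 1.53% of the exon bases of Timp4, and those of Syn1 cover 0 bases of Timp1. Syn3 had mean normalized counts of 55.9 and 52.4 in the control and dexamethasone libraries, and Syn2 had 71.2 and 36.0. Syn1 fell from 2887 ± 145 (SD, n = 3) to 1836 ± 138 (SD, n = 3), -0.65 as log2 fold change (2.47e-11 as adjusted p in limma), while Timp1 within it rose. The log2 fold changes of Syn2 and Syn3 were -0.97 and -0.0927, with limma adjusted p-values of 0.000168 and 0.683. The value of Syn2 lay close to the cut-off of 1 and passed it under some alternative settings.

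Mmp2 encodes gelatinase A, which degrades denatured collagen and collagen IV. It had 71994, 75495 and 73947 normalized counts in the control libraries and 38663, 35079 and 35833 in the dexamethasone libraries. No dexamethasone library reached a control library. The mean fell from 73812 ± 1754 (SD, n = 3) to 36525 ± 1889.6 (SD, n = 3), which is -1.02 ± 0.0414 (SE) as log2 fold change, with a 95% interval of -1.10 to -0.93 and an adjusted p of 4.84e-17 in limma. The interval spans the cut-off of 1. Without control replicate 2 the log2 fold change was -0.9995 and without dexamethasone replicate 2 it was -0.99, so that the call was lost in both cases while the adjusted p stayed far under 0.05.

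Mmp14 encodes membrane-type 1 MMP, the activator of proMMP2 and itself a collagenase at the cell surface. Its normalized counts were 55681, 58151 and 56296 in the control libraries and 26559, 22590 and 23058 in the dexamethasone libraries. The highest dexamethasone library lay far below the lowest control. The mean fell from 56709 ± 1285 (SD, n = 3) to 24069 ± 2169 (SD, n = 3), which is -1.24 ± 0.047 (SE) as log2 fold change with an adjusted p of 1.11e-17 in limma.

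Mmp13 encodes collagenase 3, which cuts fibrillar collagens. It had 154, 136 and 183 normalized counts in the control libraries and 432, 456 and 403 in the dexamethasone libraries, so that the groups were well apart. The mean rose from 158 ± 23.6 (SD, n = 3) to 430.4 ± 26.1 (SD, n = 3), which is 1.45 ± 0.107 (SE) as log2 fold change with an adjusted p of 7.68e-12 in limma. Mmp13 was the only tested MMP member that was higher with dexamethasone, and its log2 fold change stayed between 1.34 and 1.56 in all alternative analyses. Hypertrophic chondrocytes also express this gene. Of the 7 chondrocyte markers 3 were tested, and 2 of them were called higher, against 11.7% of all tested genes. Sox9 and Col2a1 were called higher, while Col11a2 fell from 812 ± 12.6 to 508 ± 14.2 normalized counts (SD, n = 3), -0.67 as log2 fold change (7.08e-10 as adjusted p in limma) and not called. The list summed to 6653 to 7106 in the control and 22586 to 25412 in the dexamethasone libraries, most of it Sox9 and Col2a1. Col10a1, the collagen of hypertrophic chondrocytes, was too low to be tested, with 7, 15 and 12 reads in controls and 5, 3 and 4 with dexamethasone, values that did not overlap. Col9a1 and Matn1 had 3 reads or fewer in every library, and Acan had means of 1.92 and 2.89 normalized counts. The part of chondrocyte-like cells in the Mmp13 values was not tested.

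Mmp9 encodes gelatinase B. It was covered by 22, 20 and 25 reads in controls and by 13, 5 and 8 with dexamethasone, low values that did not overlap. Normalized counts fell from 20.6 ± 1.24 (SD, n = 3) to 9.05 ± 3.48 (SD, n = 3), which is -1.16 ± 0.372 (SE) as log2 fold change, with a 95% interval of -1.93 to -0.39 and an adjusted p of 0.00739 in limma. Without dexamethasone replicate 2, the library with 5 reads, the log2 fold change was -0.88 (limma adjusted p = 0.0372) and the call was lost. Osteoclasts and neutrophils are the known abundant sources of this gene. Of the 7 osteoclast markers 3 were tested, and Atp6v0d2 was called higher and none lower, against 11.7% and 10.6% of all tested genes. Ctsk fell from 13146 ± 309 to 8353 ± 222 normalized counts (SD, n = 3) but was not called. Its log2 fold change was -0.65 (limma adjusted p = 1.68e-14), and that of Nfatc1 was -0.0844 (limma adjusted p = 0.0694). Acp5, which encodes the osteoclast acid phosphatase, had 0 reads in all control libraries and a mean of 18.3 normalized counts with dexamethasone. Ocstamp, too low to be tested, had 0, 6 and 1 reads in controls and 20, 6 and 14 with dexamethasone. Calcr, also untested, had 0, 4 and 1 in controls and 0, 0 and 1 with dexamethasone. The summed counts of the osteoclast list, made up mostly of Ctsk and Nfatc1, were 17283 to 18311 in the control and 12494 to 13192 in the dexamethasone libraries. Of 8 neutrophil markers 5 were tested and 0 were called by limma (all tested genes: 22.3%). Only S100a8 had an adjusted p under 0.05, where 72.5% of all tested genes did. The summed counts of the 8 neutrophil markers were 948 to 1002 in the control and 1058 to 1222 in the dexamethasone libraries. The part of these cells in the Mmp9 values was not tested.

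Mmp3 and Mmp10 encode stromelysins 1 and 2, which cut proteoglycans and other matrix proteins and activate other proMMPs. Mmp10 had 0 reads in each control library but 16, 8 and 9 with dexamethasone, or 11.5 ± 3.39 (SD, n = 3) normalized counts. Against a limit of 3 reads in each control library this mean was at least 4.14-fold higher. The bound covers the control side only, not the counting error of the dexamethasone reads. In the fit without a filter on low values, Mmp10 had a limma adjusted p of 6.9e-06. Mmp3 had 0 reads in each control library and 4, 0 and 2 with dexamethasone, and in the same fit its limma adjusted p was 0.111, a difference not detectable with so few reads. The exons of these 2 paralogs are similar, and 96.2% of the 75-base windows of Mmp3 and 96.1% of those of Mmp10 occur in no other gene of GENCODE M21. This share was 79.4% for Timp3, whose exons overlap those of Syn3 on the opposite strand, and at least 99.7% for the other members. The windows were sought on both strands of other transcripts.

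**Figure D2:**
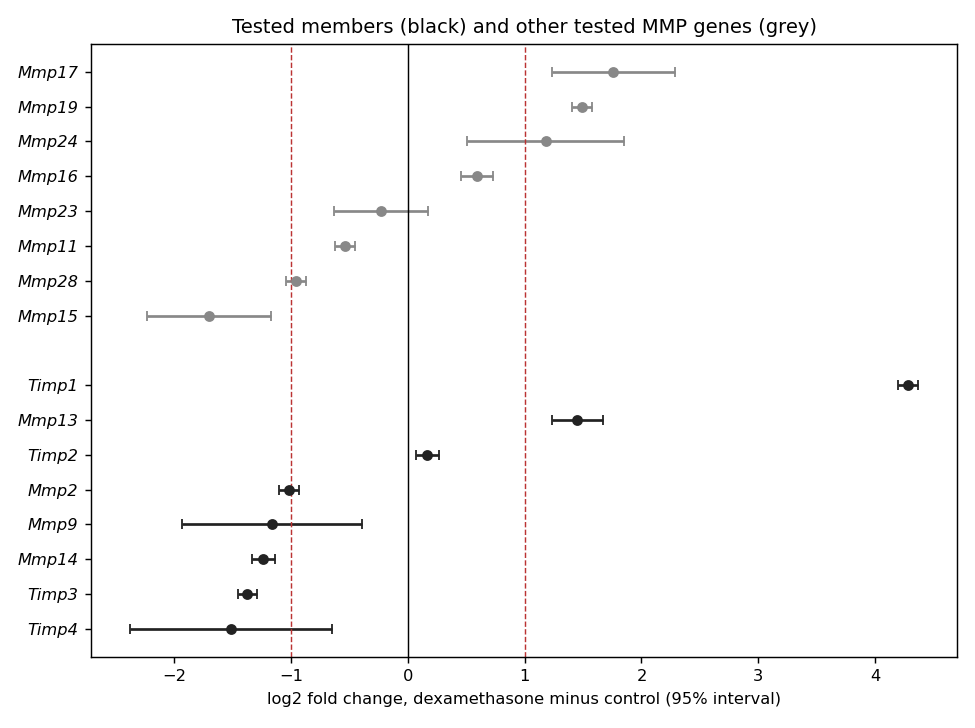
Log2 fold changes (horizontal axis, dexamethasone minus control) with their 95% limma intervals are plotted for the 8 tested members in black and for 8 further tested MMP genes in grey, with dashed lines at the cut-off of 1. Timp1 at 4.28 stands far right of all others, Timp2 at 0.17 lies nearest to 0 among the members, and the intervals of Mmp9 and Timp4 are wide.

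To compare levels between genes, normalized counts were divided by the length of all exons of a gene in kilobases. On this scale the order in the control libraries was Timp2 (25910.4 ± 1018, SD, n = 3), Mmp2 (21896 ± 520), Mmp14 (9515 ± 216), Timp1 (8541 ± 127) and Timp3 (6837 ± 189). The ranges of neighbours in this order did not overlap. Mmp13 followed at 59.0 ± 8.82, Mmp9 at 5.81 ± 0.352 and Timp4 at 2.72 ± 0.236, levels far under those of the first 5. This order depends on the length used. Per kilobase of the longest transcript, a length chosen after seeing the data, Timp3 (11791 ± 326) came before Timp1 (8590 ± 128) in the control libraries, and Mmp14 was at 17514 ± 397. With dexamethasone Timp1 (166622 ± 9931) came before Timp2 (29099 ± 1263), Mmp2 (10835 ± 561), Mmp14 (4038 ± 364) and Timp3 (2638 ± 136), again with no overlap between neighbours, and the order of these 5 was the same per kilobase of the longest transcript. Mmp13 was at 161 ± 9.77, Mmp10 at 6.67 ± 1.97 and Mmp9 at 2.56 ± 0.984, and the values of Mmp9 overlapped those of Mmp3 (1.14 ± 1.07).

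Per kilobase, Timp1 made up 20.7% ± 0.34 (SD, n = 3) of the summed TIMP members in the control libraries and 84.0% ± 1.35 (SD, n = 3) with dexamethasone. Timp2 went from 62.7% to 14.7% of that sum and Timp3 from 16.6% to 1.33%. Without Timp1 the summed TIMP level was 32750 ± 1068 normalized counts per kilobase in the control and 31738 ± 1388 in the dexamethasone libraries. The MMP sum fell from 31476 ± 723 to 15045 ± 926. Mmp2 made up 69.6% ± 0.158 of it in the control and 72.0% ± 0.709 in the dexamethasone libraries, and Mmp14 30.2% ± 0.179 and 26.8% ± 0.748. Mmp13 gave 0.188% of the MMP sum in the control libraries and 1.07% with dexamethasone. The ratio of the TIMP sum to the MMP sum was 1.30, 1.30 and 1.34 in the control libraries and 11.8, 13.8 and 14.1 in the dexamethasone libraries. Leaving out Timp1, this ratio was 1.04 ± 0.0201 and 2.11 ± 0.0366, or 0.939 and 1.81 per kilobase of the longest transcript, so that its side of 1 in the control libraries depends on the length. These are ratios of transcripts, not of proteins or of enzyme activity.

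**Figure D3:**
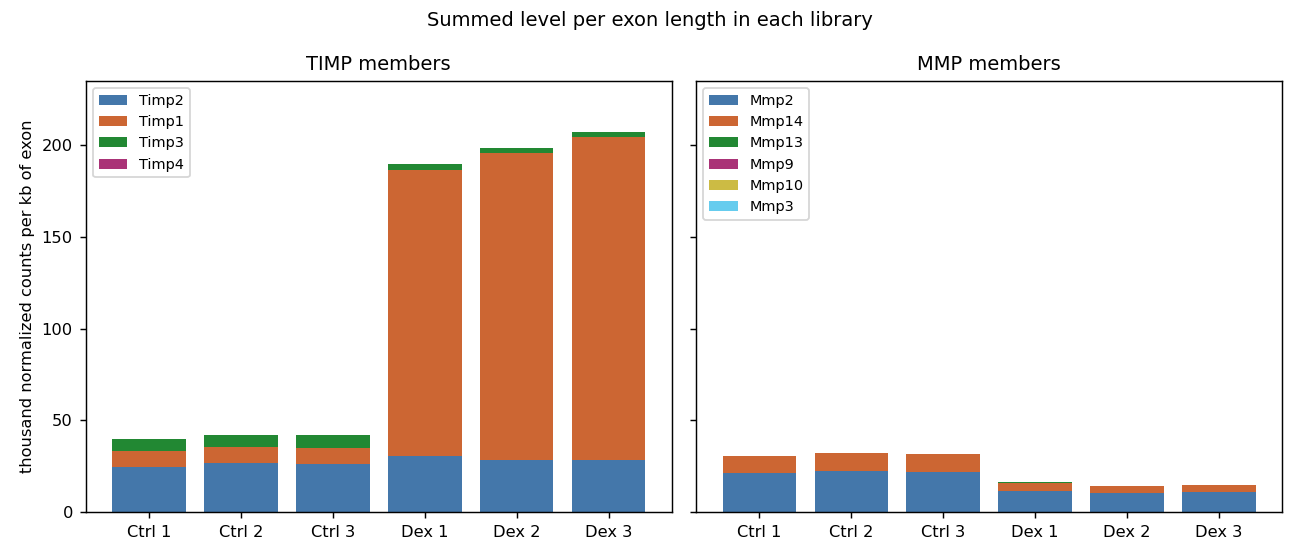
Stacked bars give the summed level of the TIMP members (left) and of the MMP members (right) in 1000 normalized counts per kilobase of exon, for each of the 3 control (Ctrl) and 3 dexamethasone (Dex) libraries. In the control libraries the bars average 41291 (TIMP) and 31476 (MMP) normalized counts per kilobase, whereas with dexamethasone Timp1 forms 84.0% of the TIMP bar and the MMP bar, mostly Mmp2 and Mmp14, is lower.

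Ratios of an enzyme to an inhibitor within a library hardly depend on how the library was scaled. On the log2 scale, after adding 1 to each count, Mmp14 over Timp2 was -0.79, -0.83 and -0.87 in the control libraries and -2.16, -2.28 and -2.27 in the dexamethasone libraries, a difference of -1.41. Mmp2 over Timp2 went from -0.45 ± 0.0277 (SD, n = 3) to -1.63 ± 0.0129 (SD, n = 3), a difference of -1.18. Both ratios thus fell in every dexamethasone library.

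Mmp13 over Timp1 fell by 2.83 on the log2 scale, from -5.59 ± 0.22 to -8.42 ± 0.149, although Mmp13 itself rose. Mmp9 over Timp1 fell by 5.45, from -8.46 ± 0.0878 to -13.9 ± 0.579, with the larger spread resting on 5 to 13 reads of Mmp9. Mmp14 over Timp3, a pair that fell together, was 0.0266 ± 0.0626 in the control libraries and 0.16 ± 0.068 in the dexamethasone libraries, a difference of 0.13 and small beside the other pairs. For each of the 6 pairs computed the exact two-sided permutation p was 0.1, also after Benjamini-Hochberg adjustment, which is the smallest that 3 against 3 libraries allow. The pair Mmp3 over Timp1 is not given because Mmp3 had no reads in the controls.

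**Figure D4:**
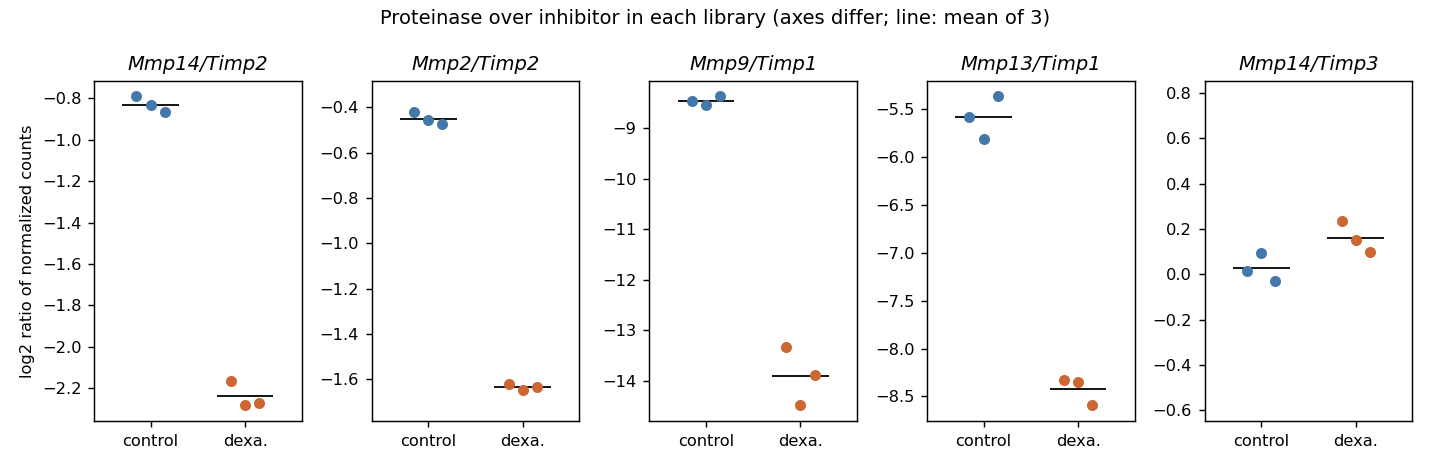
The log2 ratio of normalized counts of an enzyme gene to an inhibitor gene is plotted for 5 pairs, with 1 point per library, the mean of 3 libraries as a line and a separate vertical axis for each pair. The first 4 pairs are lower in every dexamethasone library, and Mmp14 over Timp3 differs by 0.13.

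Other MMP genes did not move in 1 direction. Of the 17 further genes listed 13 had a row in the table and 8 were tested, with a median log2 fold change of 0.18. Limma called 3 higher and 1 lower (all tested genes: 11.7% and 10.6%). Mmp19, a widely expressed secreted enzyme, rose from 2578 ± 125 to 7235 ± 311 normalized counts (SD, n = 3), 1.49 as log2 fold change (2.83e-20 as adjusted p in limma). Per kilobase of exon its mean was 2048 in the dexamethasone libraries, above all MMP members but Mmp2 and Mmp14. Mmp17 and Mmp24, both membrane-type enzymes, had log2 fold changes of 1.76 and 1.18 (limma adjusted p = 1.2e-06 and 0.00233) at mean levels under 100 normalized counts. Mmp15, the membrane-type relative of Mmp14, fell from 58.1 ± 4.69 to 17.5 ± 4.89 (SD, n = 3), -1.70 as log2 fold change (2.11e-06 as adjusted p in limma). Mmp28, Mmp11, Mmp16 and Mmp23 had log2 fold changes of -0.96, -0.54, 0.59 and -0.23, under the cut-off. The first of these was called lower, at -1.07 with all libraries rescaled to the same total and at -1.12 after quantile normalization. The medians of all tested genes were then -0.11 and -0.0746.

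Genes that act on MMPs were called about as often as all tested genes, of which 22.3% were called (11.7% higher and 10.6% lower). Of 17 listed regulators (activators, surface regulators and clearance) 13 were tested, 2 were called higher and 1 lower, and the median log2 fold change was 0.34. The most abundant were Lrp1, the endocytic receptor that clears MMPs and TIMP complexes, Cd44, a docking site for MMP9, and Bsg, an inducer of MMPs. Their log2 fold changes were 0.45, 0.47 and -0.24, with limma adjusted p-values of 9.32e-09, 2.4e-11 and 6.3e-06, all under the cut-off. Plaur (the urokinase receptor) and Plau (urokinase), chosen after their values were seen, belong to the plasminogen activator system, which can activate proMMPs. The log2 fold change of Plaur was 2.03 and that of Plau was -1.16, and both were among the called genes. Reck, a membrane-anchored inhibitor of MMPs, and Furin, which activates proMMP14, had log2 fold changes of -0.57 and 0.34.

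Of 10 ADAM and ADAMTS genes whose enzymes TIMPs block, all were tested, with a median of 0.21. Limma called 2 higher and 2 lower (all tested genes: 11.7% and 10.6%). The most abundant, Adam9, Adamts1 and Adam10, had log2 fold changes of 0.94, -0.0884 and 0.0963. That of Adam10 was -0.0177 with all libraries rescaled to the same total and -0.12 after quantile normalization. The medians of all tested genes were then -0.11 and -0.0746. Chosen after their values were seen, Adam12 had a log2 fold change of 4.02 and Adamts5, an aggrecanase that TIMP3 blocks, one of -2.72. Among 16 substrate genes 13 were tested, 5 were called higher and 5 lower (all tested genes: 11.7% and 10.6%), with a median of -0.15. The most abundant were Fn1 (fibronectin), Col1a2 and Spp1 (osteopontin), with log2 fold changes of -0.15, -1.05 and 5.25 and limma adjusted p-values of 0.0744, 1.13e-12 and 1.43e-29. Col1a1 and Col3a1, named after their values were seen, had log2 fold changes of -1.88 and -2.16.

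All 14 listed transcription factors of MMP promoters were tested, with a median of 0.24. Limma called 4 higher and 3 lower (all tested genes: 11.7% and 10.6%). The most abundant were Fosl2 and Jun, both AP-1 subunits, and Runx2, a factor that binds the Mmp13 promoter. Their log2 fold changes were -1.51, 1.58 and -1.75, with limma adjusted p-values of 4.58e-22, 5.84e-21 and 2.42e-22. Fosl1, another AP-1 subunit, and Etv4, an Ets factor of the PEA3 group, were chosen after their values were seen and had log2 fold changes of 4.56 and 5.66. Of 13 signals and receptors 11 were tested, 3 called higher and 3 lower (all tested genes: 11.7% and 10.6%), with a median of 0.13. The most abundant, Tnfrsf1a, Tgfbr2 and Nr3c1 (the glucocorticoid receptor), had log2 fold changes of 0.0553, -1.22 and -0.92, with limma adjusted p-values of 0.185, 1.82e-19 and 1.46e-17. That of Tnfrsf1a was -0.0588 with all libraries rescaled to the same total and -0.16 after quantile normalization, where the medians of all tested genes were -0.11 and -0.0746. Il1r1 (the interleukin-1 receptor) and Pth1r (the parathyroid hormone receptor), whose ligands raise Mmp13 in osteoblasts, had log2 fold changes of 1.53 and -2.20 and were also chosen after their values were seen.

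**Figure D5:**
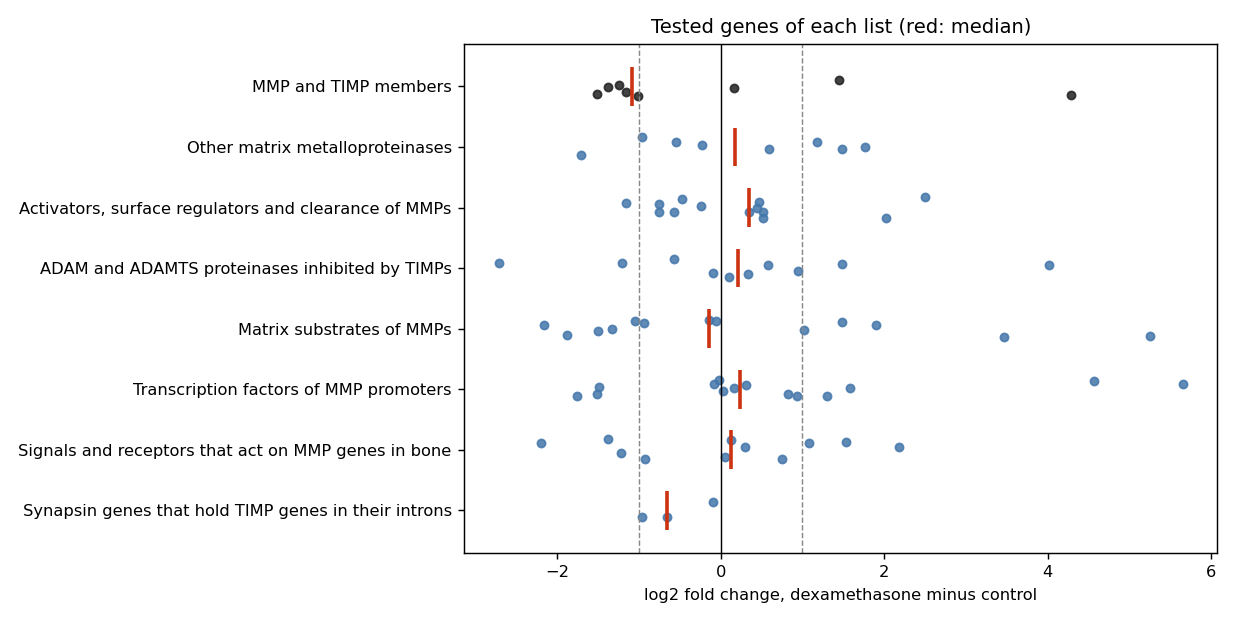
Each point is the log2 fold change (horizontal axis, dexamethasone minus control) of 1 tested gene, with 1 row for the MMP and TIMP members and 1 for each of 7 gene lists, a red bar at the median and dashed lines at the cut-off of 1. The median of the members is -1.09, and it includes Mmp9 and Timp4, which passed the filter through their control libraries. The medians of the lists run from -0.65 for the synapsin genes to 0.34 for the regulators.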

How the data were processed

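Libraries were made from total RNA with a KAPA Stranded mRNA-Seq kit. The authors aligned and counted reads per gene with STAR 2.7.10a and normalized them with DESeq2 1.36.0, with GRCm39 as the build in the submitters' processing notes. The annotation release and strand setting are not given in the sources used here. The deposited values are a signal, namely reads per gene scaled by the size factor of each library. In each library 100% of the values were whole multiples of the value of 1 read (relative tolerance 1e-06), so reads were recovered, 72596611 to 89910728 per library.

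Symbols came from GENCODE M21 (28087 of 29616 identifiers matched), as did exon lengths and overlaps, and this release may differ from the authors'. Normalized counts were compared on the log2 scale after adding 1, which makes the fold changes of low genes smaller, with limma 3.58.1 (mean-variance trend) in R 4.3.3. Genes with a mean of at least 10 were tested, 17442 in all. Alternatives included DESeq2 1.42.0 and edgeR 4.0.16 run on whole reads, and the methods were tested on simulated data.

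The members, gene lists and tests were chosen with earlier results of these data known. The genes named are the members, the tested genes of the other MMPs, the 3 tested genes with the highest mean of each other list, and markers beside a member's result. Others were chosen after their values were seen and are named as such, Reck and Furin included. Enzyme and inhibitor pairs were compared with an exact permutation test. In the regulator list, 1 gene is counted but not reported by name here.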

Additional observations from a re-analysis of the deposited data

How the results depend on the processing

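Of the 10 members, 7 were called under most settings. Of the members called lower (5), 3 remained with a mean of at least 100 and 3 with at least 10 in every library, by construction, since Mmp9 and Timp4 are then not tested. With the libraries left out one by one, 3 to 5 were called lower, 3 without dexamethasone replicate 2, where Mmp2 and Mmp9 lost their calls. The log2 fold change of Mmp2 was between -1.06 and -0.99 when a library was left out. That of Mmp9 was between -1.40 and -0.88, and with 5 added before taking logarithms it was -0.89 and not called, by construction of the larger addition. Without a filter on low values Mmp10 was called too, 8 members in all, and no other member lost or gained a call, except that Timp2 passed at the adjusted p alone. In the lists that are not cell type markers 34 genes were called, where 22.3% of all tested genes were. At an adjusted p under 0.05 alone 63 passed, against 72.5% of all tested genes. The genes tested were 8 other MMPs, 13 regulators, 10 ADAM and ADAMTS genes, 13 substrates, 14 transcription factors, 11 signals and 3 synapsins. Among 38 other named genes, 2 lost their call and 3 gained one under at least 1 alternative setting. The direction reversed in 3 of the 38, and the cause was not tested. Adam10 went to -0.0177 at the same total and -0.12 after quantile normalization, Tnfrsf1a to -0.0588 and -0.16, and Syn3 to 0.00881 after quantile normalization and to values between -0.18 and 0.0062 in the leave-one-out fits. Rescaling to the same total shifted the median of all genes to -0.11 and quantile normalization shifted it to -0.0746. Values under these settings are read against these shifts.

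Libraries that share a replicate number did not deviate together from their group means (correlations of -0.0999, -0.105 and -0.0199), so the numbers give no pairing. In the fit with the replicate block 7 members were called (2 higher, 5 lower) and 34 genes of the lists, the same counts as without it. With the longest transcript as length, chosen after seeing the data, the TIMP to MMP ratio rose 9.13-fold instead of 10.1-fold, and Timp1 was 18.1% and 82.6% of the TIMP sum in the control and dexamethasone libraries. With that length Timp3 made up 24.8% instead of 16.6% of the TIMP sum in controls and 2.25% instead of 1.33% with dexamethasone, and Mmp14 made up 42.1% instead of 30.2% and 38.1% instead of 26.8% of the MMP sum.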

Other observations

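Marker lists of cell types not named beside a member gave mixed counts, beside 11.7% of all tested genes called higher and 10.6% lower. Of 4 tested osteocyte markers 1 was called higher, Dmp1, which is also in the osteoblast list. Of 4 tested macrophage markers 2 were called higher (Cd68 and Mrc1) and 1 lower (Lyz2). Of 4 tested pan-hematopoietic markers 2 were called higher (Cd53 and Itgb2) and 2 lower (Laptm5 and Coro1a), while Ptprc had means of 2.48 and 4.71 normalized counts. Of 4 tested endothelial markers 0 were called by limma and 3 had an adjusted p under 0.05, against 22.3% and 72.5% of all tested genes. Cdh5 and Tie1 had 3 reads or fewer in every library, and Emcn had no row. Of 4 tested fibroblast and tendon markers 2 were called higher (Pdgfra and Cd34) and 1 lower (Scx), and of 2 tested adipocyte markers 1, Fabp4, was called higher. Several of these genes were named after their values were seen.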
